A study of Mus musculus with 6 samples.

Results

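The 10 genes described here mark cardiac fibroblasts or their response to injury. They were taken by symbol from a table of 17556 genes and fall into 4 genes of resting fibroblasts (Tcf21, Gsn, Dpep1 and Pi16), 4 genes of activated fibroblasts (Fap, Meox1, Ddah1 and Tnfrsf12a) and 2 genes of fibroblasts in general (Ddr2 and Thy1). All 10 were found, and all 10 passed the filter on low counts that left 13817 genes for testing. The question was whether these genes differed between left ventricles with and without a Cre that removes floxed Yap and Wwtr1 from myofibroblasts.

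The data were bulk RNAseq of left ventricles from mice aged 6 to 10 weeks, collected at 4 days post injury (dpi) after permanent ligation of the left anterior descending artery. All mice were siblings in which both alleles of Yap and one allele of Wwtr1 were floxed, and all ate tamoxifen citrate chow from the end of surgery. The 3 Cre positive mice carried in addition a copy of MerCreMer driven by the endogenous periostin promoter, and the 3 Cre negative mice had wildtype Periostin. Excision was therefore limited to cells that express periostin, the floxed Wwtr1 allele left the other allele intact, and each library held RNA of the whole ventricle. The comparison joins excision with the presence of the Cre allele, and these cannot be told apart with these samples. The labels do not say whether the replicates of a genotype came from separate litters or surgery days, so p-values measure the spread between these 6 ventricles.

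Fibroblasts of the healthy heart are interstitial cells that maintain the collagen network, and the transcription factor Tcf21 marks their lineage. After an infarct they proliferate, lose part of their resting programme and become myofibroblasts, which express periostin and build the scar. Yap and Wwtr1 (Taz) are transcriptional coactivators of the Hippo pathway that bind DNA through TEAD factors, and GGAATG is the core of the TEAD recognition sequence.

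Promoter windows of 300 bases, from 250 bases before to 50 bases after the annotated start of a transcript, were read from RefSeq (GRCm38.p6) for 7 of the 10 genes, in 9 windows; Fap, Meox1 and Thy1 had none. The windows of Tcf21 and Dpep1 are printed because Tcf21 is the lineage transcription factor of the set and because the Dpep1 window was the only 1 of the 9 that held GGAATG on either strand. GGAATG or its reverse complement occurred in 14.7% of 32851 windows of this length. The capitals in the Dpep1 window mark this match, which begins 67 bases before the start and reads CATTCC on the strand of the gene, and the Tcf21 window has no capitals because it held no match. Tcf21 (minus strand) was read from chr10:22820094-22820393 and Dpep1 (plus strand) from chr8:123185985-123186284.
Tcf21: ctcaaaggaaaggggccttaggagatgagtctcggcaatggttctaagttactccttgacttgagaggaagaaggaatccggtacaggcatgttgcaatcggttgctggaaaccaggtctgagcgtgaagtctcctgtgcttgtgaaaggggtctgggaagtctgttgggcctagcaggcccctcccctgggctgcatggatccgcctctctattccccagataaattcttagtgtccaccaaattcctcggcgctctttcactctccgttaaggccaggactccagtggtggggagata
Dpep1: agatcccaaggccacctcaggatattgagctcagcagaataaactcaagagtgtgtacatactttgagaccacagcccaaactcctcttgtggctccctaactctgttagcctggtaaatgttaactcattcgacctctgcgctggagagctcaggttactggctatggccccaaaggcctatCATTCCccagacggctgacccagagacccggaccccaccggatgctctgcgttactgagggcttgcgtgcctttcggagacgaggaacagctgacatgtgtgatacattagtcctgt
The Tcf21 window also held no TATAAA, which 13.6% of windows had on either strand, and no E-box (CANNTG, the letters bound by Tcf21 and its relatives), which 72.3% of windows had. The Dpep1 window held 2 E-boxes, beginning 20 and 27 bases after the start, and no TATAAA. The Ddr2 window held a TATAAA match beginning 185 bases before its start. These matches share no bases with the GGAATG match, and they describe letters in these windows only.

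Estimated counts, which divide reads shared between genes, summed to between 13177888 and 14827579 per ventricle, and a count of 0 allows up to 3 counts, or 0.202 to 0.228 counts per 1000000 in these libraries. Of the 13817 genes tested with edgeR's quasi-likelihood test, 1 differed between genotypes at an adjusted p under 0.05 (0.00724%), the guanylate-binding protein gene Gbp2b (adjusted p = 0.00991), and 806 had an unadjusted p under 0.05 (5.83%). The targeted genes did not separate the genotypes in normalized counts of whole ventricles, with log2 fold changes of 0.03 (SE 0.09, adjusted p = 0.935 by edgeR) for Yap1 and 0.05 (SE 0.08, adjusted p = 0.876 by edgeR) for Wwtr1. In TPM (transcripts per 1000000) every Cre positive ventricle was higher, for Yap1 (48.9 to 50.7 against 44.2 to 46.3) and Wwtr1 (43.9 to 47.4 against 39.3 to 43.6). On log2(TPM + 1) both had an adjusted p of 0.590 by limma, and the median of all genes was 0.11. The library labelled Cre negative replicate 1 stood apart, being the highest or the lowest of the 6 ventricles for 62.9% of all genes and for 8 of the 10 fibroblast genes. Fold changes of the 10 genes are therefore given with and without it. Replicate 2 of both genotypes had 16 and 12 counts in 4 Y-linked genes and the other 4 ventricles had 1592 to 2034, so each genotype held 1 ventricle with almost no Y-linked RNA. The part of this split in the values below was examined with the Y-linked share as a covariate.

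Fibroblast identity was present in every ventricle. The 9 other general fibroblast genes, such as Col1a1, Pdgfra and Dcn, summed to 5261, 8300 and 7478 TPM (transcripts per 1000000) in Cre negative replicates 1, 2 and 3 and to 9478, 8404 and 9470 TPM in the Cre positive replicates. Single genes did not all keep this order. In Cre negative replicates 1, 2 and 3 Col1a1 was at 1549, 2707 and 2435 TPM and Dcn at 851, 791 and 692 TPM. On the TPM scale, which takes transcript length into account and allows levels to be compared between genes, Gsn was the most abundant of the 10 genes in both genotypes, at 696 ± 34.4 TPM (SD, n = 3) in Cre negative and 592 ± 131 TPM (SD, n = 3) in Cre positive ventricles. Tnfrsf12a followed at 267 ± 47.5 and 319 ± 60.1 TPM, and then Pi16 at 146 ± 29.2 and 125 ± 31.1 TPM. Ddr2, at 10.3 ± 0.481 and 13.0 ± 1.15 TPM, and Fap, at 7.69 ± 2.40 and 7.91 ± 1.87 TPM, were the lowest. Levels of the other 5 genes lay between these, with means from 32.3 TPM (Ddah1) to 86.8 TPM (Thy1) in Cre negative and from 39.9 TPM (Tcf21) to 94.4 TPM (Thy1) in Cre positive ventricles.

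**Figure D1:**
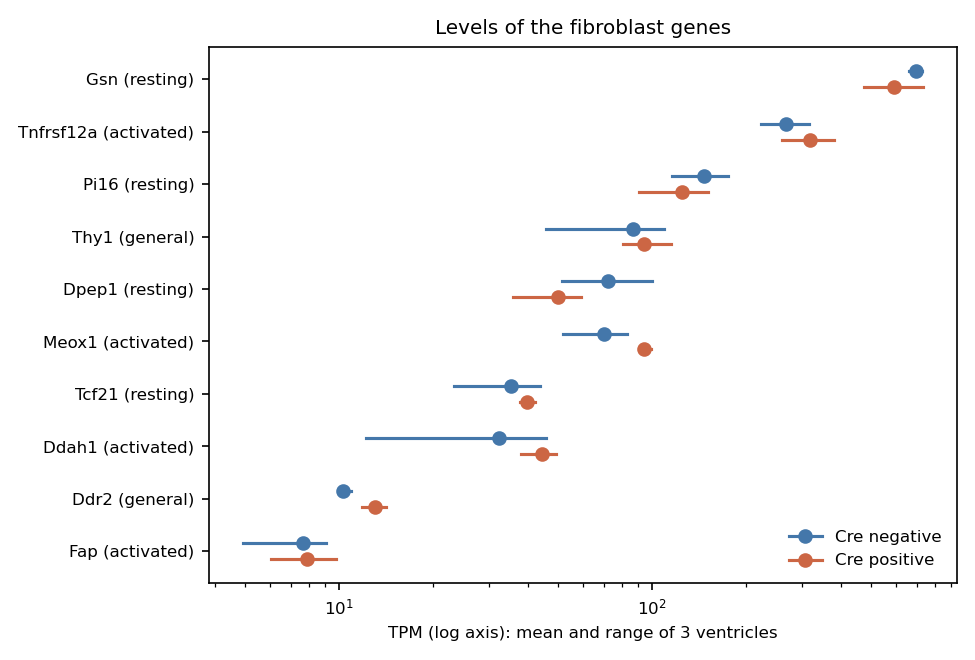
TPM of the 10 fibroblast genes on a log axis, with the mean (point) and the range (line) of 3 ventricles per genotype, blue for Cre negative and orange for Cre positive. Gsn and Tnfrsf12a are the highest and Ddr2 and Fap the lowest in both genotypes.

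Not all neighbours in this order could be told apart. In Cre negative ventricles the TPM ranges of Thy1 and Dpep1, of Dpep1 and Meox1, and of Tcf21 and Ddah1 overlapped. In Cre positive ventricles those of Pi16 and Thy1, of Thy1 and Meox1, of Dpep1 and Ddah1, and of Ddah1 and Tcf21 overlapped. The mean of Meox1 lay below that of Dpep1 in Cre negative ventricles (70.0 against 72.3 TPM) and above it in Cre positive ventricles (93.9 against 49.9 TPM), where the 2 ranges were separate. This change of order rested on Cre negative replicate 1, in which Meox1 was at 52.0 and Dpep1 at 99.9 TPM. In Cre negative replicates 2 and 3 Meox1 (75.3 and 82.8 TPM) was above Dpep1 (51.5 and 65.6 TPM), as in Cre positive ventricles.

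None of the 10 genes differed between genotypes at an adjusted p under 0.05 with edgeR's quasi-likelihood test, DESeq2 or limma. By edgeR 2 of the 10, Meox1 and Ddr2, had an unadjusted p under 0.05, beside 5.83% of all genes tested. By DESeq2 3 of the 10 (Gsn, Dpep1 and Meox1) were under this threshold, beside 5.88% of all genes. By limma 2 of the 10 (Meox1 and Ddr2) were under it, beside 7.23% of all genes on log2(TPM + 1) and 7.03% on log2(TPM + 0.1). With the Y-linked share as a covariate in edgeR, Dpep1 alone was under it, beside 4.98% of all genes. By the level in each ventricle, the same 2 genes were higher in every Cre positive than in every Cre negative ventricle, which was the case for 7.55% of all genes. No fibroblast gene was lower in every Cre positive ventricle, which was the case for 6.85% of all genes. Log2 fold changes below are those of Cre positive over Cre negative ventricles, values per ventricle are normalized counts in the order of replicates 1, 2 and 3, and the smallest p that the exact permutation test of 3 against 3 ventricles allows is 0.1. In whole ventricles, fewer cells that express a gene and less of its RNA per cell cannot be told apart.

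**Figure D2:**
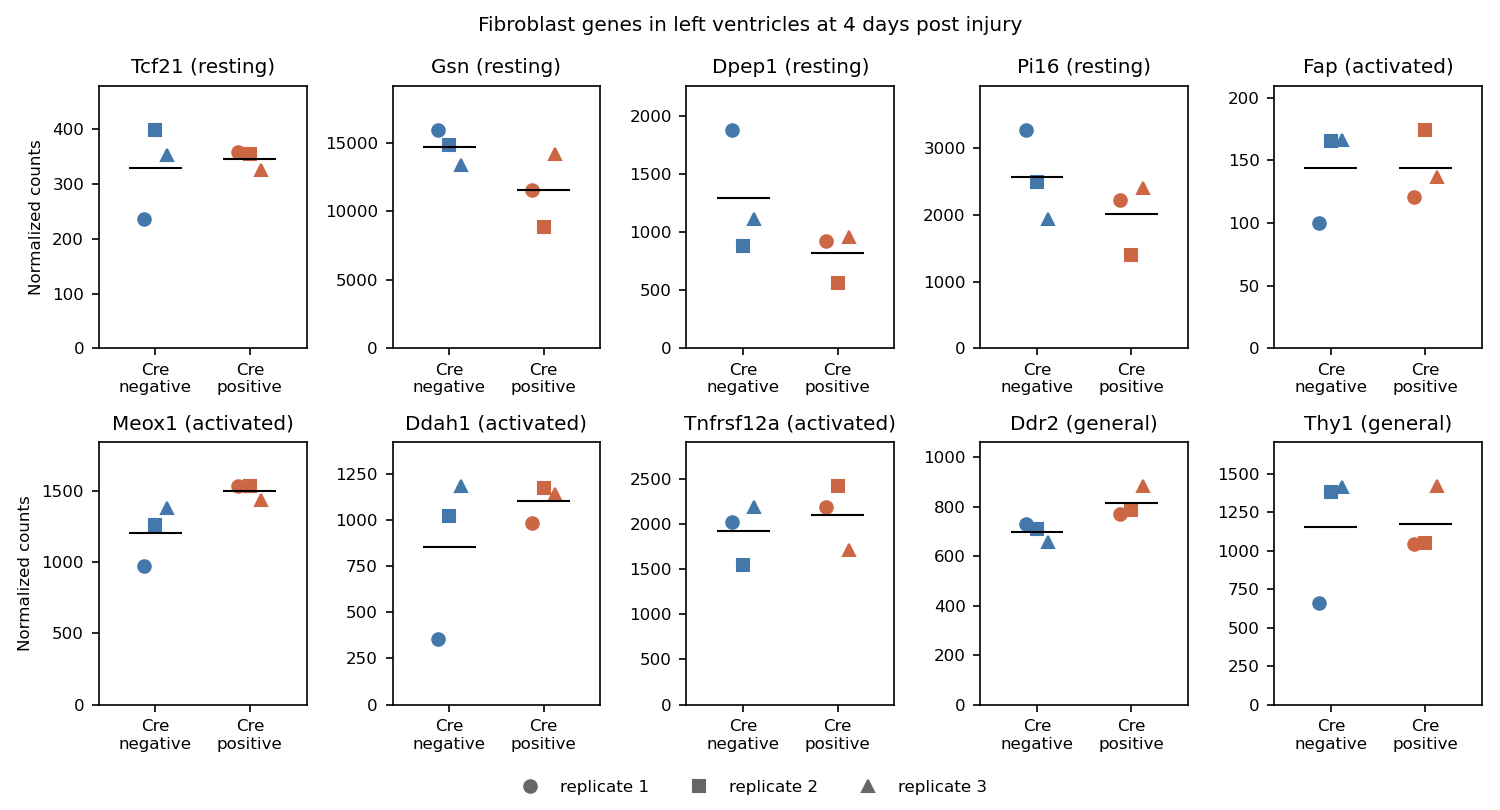
Normalized counts of each gene in each ventricle (symbols by replicate number) with the mean of 3 per genotype (line), on linear axes from 0, blue for Cre negative and orange for Cre positive. Points of the genotypes are separate for Meox1 and Ddr2 alone, and Cre negative replicate 1 (blue circle) is the lowest point for Tcf21, Fap, Meox1, Ddah1 and Thy1 and the highest for Gsn, Dpep1 and Pi16.

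Of the resting genes, 3 of 4 had lower means in Cre positive ventricles. Tcf21 (gene 21412, chr10:22817263-22820143) encodes the basic helix-loop-helix factor of the fibroblast lineage. Its normalized counts were 236, 399 and 353 in Cre negative and 358, 354 and 326 in Cre positive ventricles. The Cre positive values lay within the Cre negative range, which was wide because replicate 1 was low. Its log2 fold change was 0.07 (SE 0.18, 95% interval -0.36 to 0.50, adjusted p = 0.921 by edgeR) and its exact two-sided permutation p was 0.8. Without Cre negative replicate 1 the log2 fold change was -0.12.

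Gsn (gene 227753, chr2:35256359-35307902) encodes gelsolin, which severs and caps actin filaments. Cre negative ventricles had 15963, 14811 and 13373 normalized counts of Gsn and Cre positive ventricles 11544, 8875 and 14155. Of the Cre positive ventricles, replicates 1 and 2 were below all Cre negative values and replicate 3 was within their range. The log2 fold change was -0.35 (SE 0.18, 95% interval -0.76 to 0.06, adjusted p = 0.714 by edgeR), with an exact permutation p of 0.2. It was -0.29 without Cre negative replicate 1 and -0.19 without Cre positive replicate 2, the ventricle with the lowest value. In the other direction, it was -0.42 without Cre negative replicate 3 and -0.53 without Cre positive replicate 3.

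Dpep1 (gene 13479, chr8:123186235-123201812) encodes a membrane dipeptidase that cleaves leukotriene D4, and its promoter window is the one with the GGAATG match. It had the most negative log2 fold change of the 10 genes. Its normalized counts were 1883, 880 and 1115 in Cre negative and 929, 562 and 961 in Cre positive ventricles. Cre negative replicate 1 was far above the other 5 ventricles, and Cre negative replicate 2 lay below 2 of the Cre positive values. The log2 fold change was -0.66 (SE 0.31, 95% interval -1.37 to 0.05, adjusted p = 0.714 by edgeR), with an exact permutation p of 0.3. Without Cre negative replicate 1 it was -0.29, and without Cre negative replicate 2 it was -0.87. The lowest 2 values were those of the ventricles with almost no Y-linked RNA, 880 and 562, and with the Y-linked share as a covariate the log2 fold change was -0.66 (adjusted p = 0.776 by edgeR).

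Pi16 (gene 74116, chr17:29318796-29328903) encodes peptidase inhibitor 16 and marks fibroblasts of the adventitia. Pi16 had normalized counts of 3280, 2490 and 1943 in Cre negative and 2220, 1394 and 2410 in Cre positive ventricles, so the genotypes overlapped. On the log2 scale the fold change was -0.36 (SE 0.25, 95% interval -0.93 to 0.22, adjusted p = 0.719 by edgeR), with an exact permutation p of 0.4, and it was -0.15 without Cre negative replicate 1 or Cre positive replicate 2 and -0.52 without Cre negative replicate 3. In normalized counts, Cre negative replicate 1 held the highest and Cre positive replicate 2 the lowest value of all 3 of Gsn, Dpep1 and Pi16. The summed TPM of 8 cardiomyocyte markers was likewise highest in Cre negative replicate 1 and lowest in Cre positive replicate 2, with 61839, 50776 and 51300 in Cre negative and 46997, 45787 and 49759 in Cre positive ventricles, where 0 of 8 markers had a positive log2 fold change and 4 of 8 were below every Cre negative value, beside 6.85% of all genes. On the TPM scale Dpep1 and Pi16 had these extremes too, while Gsn was highest in Cre positive replicate 3 (733 TPM, against 703 TPM in Cre negative replicate 1). The part of cardiomyocyte RNA in the differences of these genes was not tested.

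Of the activated genes, 3 of 4 had a positive log2 fold change. Fap (gene 14089, chr2:62500936-62575509) encodes fibroblast activation protein, a serine protease of the cell surface. Fap had normalized counts of 99.9, 166 and 166 in Cre negative and 120, 174 and 137 in Cre positive ventricles. The values overlapped throughout and the means were nearly equal, at 144 ± 38.1 and 144 ± 27.7 (SD, n = 3). The log2 fold change was -0.0041 (SE 0.24, 95% interval -0.55 to 0.54, adjusted p = 0.996 by edgeR), with an exact permutation p of 1. Its sign varied between fits, at 0.051 with library size alone, 0.057 on log2(TPM + 1) and 0.013 with the replicate block. It was -0.21 without Cre negative replicate 1 and 0.11 without Cre negative replicate 3.

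Meox1 (gene 17285, chr11:101877510-101894354) encodes a homeobox transcription factor of activated fibroblasts. Cre negative ventricles had 972, 1264 and 1386 normalized counts of Meox1 and Cre positive ventricles 1538, 1535 and 1440. All 3 Cre positive ventricles were above all Cre negative ventricles, and they were close together, at 1504 ± 55.6 against 1207 ± 213 (SD, n = 3). Meox1 had a log2 fold change of 0.32 (SE 0.13, 95% interval 0.0067 to 0.63, p = 0.0463, adjusted p = 0.714 by edgeR), with an exact permutation p of 0.1, the smallest possible. Without Cre negative replicate 1 the log2 fold change was 0.18 and the unadjusted p by edgeR was 0.0531. When each ventricle was left out in turn, the unadjusted p was under 0.05 in 1 of the 6 fits, that without Cre negative replicate 3, where 1338 of 13817 genes were under it.

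Ddah1 (gene 69219, chr3:145758692-145894277) encodes the enzyme that degrades asymmetric dimethylarginine, an inhibitor of nitric oxide synthases. Its normalized counts were 357, 1021 and 1185 in Cre negative and 986, 1174 and 1142 in Cre positive ventricles. The value of Cre negative replicate 1 was far below the other 5, which lay within a narrow range. The log2 fold change of 0.36 (SE 0.37, 95% interval -0.50 to 1.22, adjusted p = 0.778 by edgeR, exact permutation p = 0.7) rested on that ventricle, and without it the value was -0.0063. Ddah1 lies on chromosome 3, as Postn and Wwtr1 do, and whether this bears on its values was not tested.

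Tnfrsf12a (gene 27279, chr17:23675445-23677449) encodes Fn14, the receptor of the cytokine TWEAK. It overlaps the annotated gene Hcfc1r1, and whether counting used strand is not given in the sources used here, so reads of these genes may not be separable. Its normalized counts were 2022, 1544 and 2189 in Cre negative and 2184, 2420 and 1707 in Cre positive ventricles. It was the only activated gene for which Cre negative replicate 1 was not the lowest, and the genotypes overlapped. Fitted over all ventricles, the log2 fold change was 0.13 (SE 0.17, 95% interval -0.26 to 0.53, adjusted p = 0.818 by edgeR), with an exact permutation p of 0.6, and 0.17 without Cre negative replicate 1. Without Cre negative replicate 2, which had the lowest value, it was -0.0010.

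The general genes were Ddr2 and Thy1. Ddr2 (gene 18214, chr1:169972307-170110836) encodes discoidin domain receptor 2, a receptor tyrosine kinase for fibrillar collagen. Ddr2 had normalized counts of 730, 711 and 655 in Cre negative and 771, 786 and 884 in Cre positive ventricles. All Cre positive values were above all Cre negative values, although the gap between the nearest ventricles was small. Ddr2 had a log2 fold change of 0.22 (SE 0.09, 95% interval 0.0099 to 0.43, p = 0.0423, adjusted p = 0.714 by edgeR), with an exact permutation p of 0.1. Without Cre negative replicate 1 it was 0.25 with an unadjusted p of 0.0261, and Ddr2 was then the only one of the 10 genes under 0.05, beside 6.59% of all genes. When each ventricle was left out in turn, the unadjusted p of Ddr2 was under 0.05 in 2 of the 6 fits, those without Cre negative replicate 1 (911 of 13817 genes) or Cre positive replicate 1 (552 genes).

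Thy1 (gene 21838, chr9:44043384-44048579) encodes a glycoprotein held on the membrane by a lipid anchor, which mouse T cells carry as well as fibroblasts. Thy1 had normalized counts of 663, 1382 and 1415 in Cre negative and 1045, 1049 and 1422 in Cre positive ventricles. Cre negative replicate 1 was the lowest and the highest values of the genotypes were nearly equal. Over all 6 ventricles the log2 fold change was 0.02 (SE 0.28, 95% interval -0.62 to 0.67, adjusted p = 0.987 by edgeR), with an exact permutation p of 0.8, and without Cre negative replicate 1 it was -0.26. The 6 T cell markers summed to 2.88, 8.89 and 5.45 TPM in Cre negative and to 6.74, 5.58 and 14.5 TPM in Cre positive ventricles, so Cre negative replicate 1 was lowest and Cre positive replicate 3 highest for this sum and for Thy1. These levels were low, and 3 of the 6 markers passed the filter. Estimated counts of Lck (7, 39 and 25 against 24, 29 and 51) kept this order, and those of Cd3e (2, 12 and 1 against 19, 3 and 17) did not. The part of T cells in the Thy1 values was not tested.

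**Figure D3:**
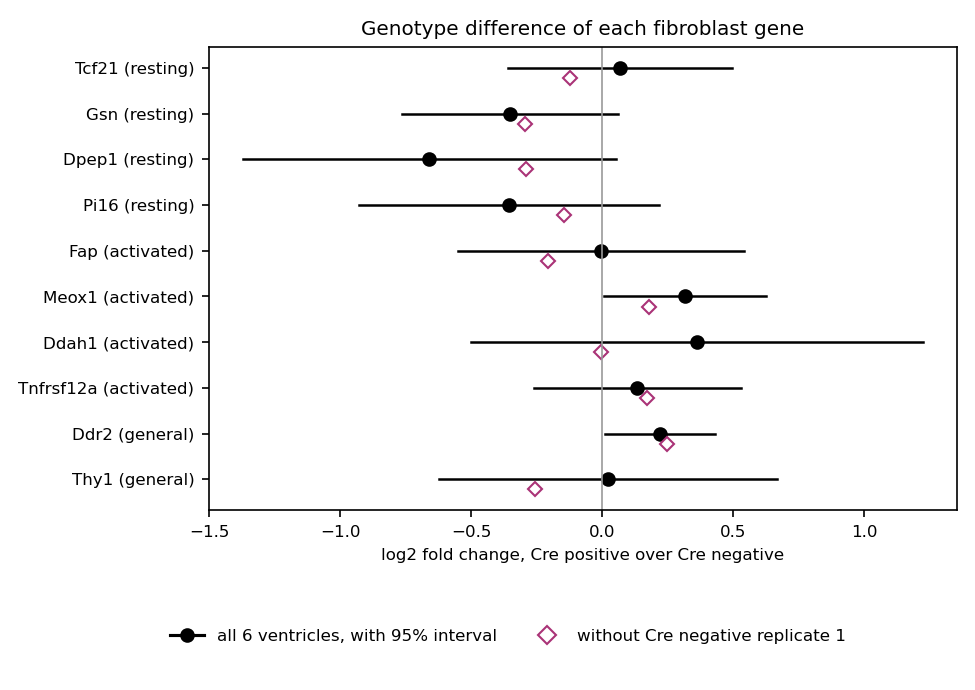
Log2 fold change of each gene, Cre positive over Cre negative, with its 95% interval over all 6 ventricles (black) and the value without Cre negative replicate 1 (open diamond). The intervals of Meox1 and Ddr2 lie just above 0, those of the other 8 genes include 0, and Dpep1, Ddah1 and Thy1 move most when that ventricle is left out.

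The spread among ventricles differed between the genes. In Cre negative ventricles the coefficient of variation of normalized counts was highest for Ddah1 (51.3%), Dpep1 (40.6%) and Thy1 (36.8%) and lowest for Ddr2 (5.54%) and Gsn (8.82%), beside a median of 13.3% over all genes. In Cre positive ventricles it was highest for Dpep1 (27.1%), Pi16 (26.9%) and Gsn (22.9%) and lowest for Meox1 (3.70%) and Tcf21 (5.08%), beside a median of 9.02%. Ddah1 and Thy1 were at 9.13% and 18.5% there. The Cre positive values of Dpep1 and Pi16 rested on replicate 2, and over replicates 1 and 3 alone they were 2.41% for Dpep1 and 5.81% for Pi16. Over the same replicates Gsn was at 14.4%, Tcf21 at 6.65% and Thy1 at 21.6%. The high Cre negative values of Ddah1, Dpep1 and Thy1 rested on replicate 1. Over Cre negative replicates 2 and 3 alone they were 10.5% for Ddah1, 16.7% for Dpep1 and 1.65% for Thy1.

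**Figure D4:**
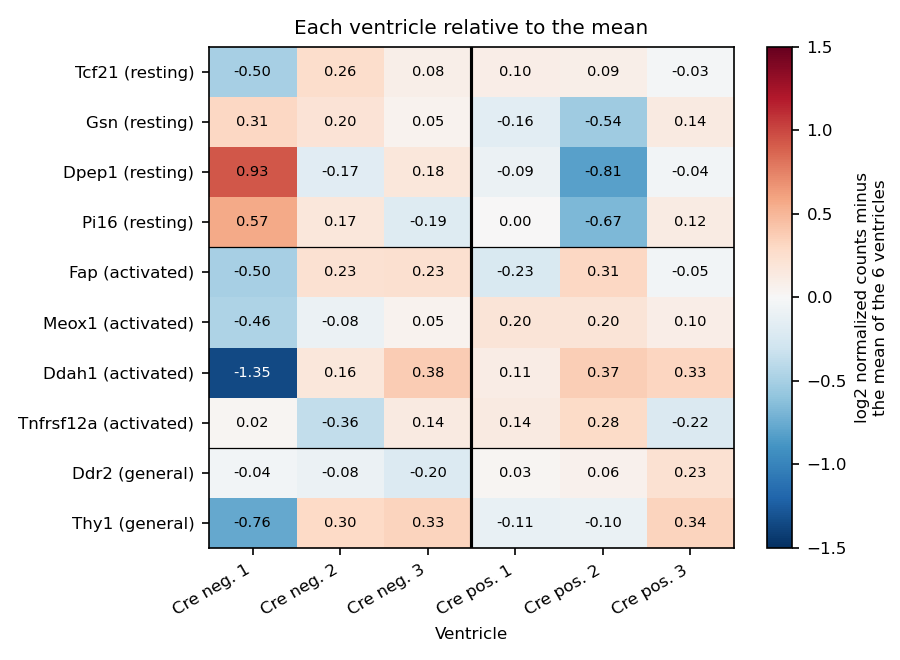
Log2 normalized counts of each gene (rows, by class) in each ventricle (columns) minus the mean of the gene over the 6 ventricles, red above and blue below the mean. In Cre negative replicate 1 Gsn, Dpep1 and Pi16 are above their means (Dpep1 by 0.93) and Tcf21, Fap, Meox1, Ddah1 and Thy1 below (Ddah1 at -1.35), and in Cre positive replicate 2 Gsn, Dpep1 and Pi16 are below (Dpep1 at -0.81).

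Resting and activated genes were then set against each other within each ventricle, a contrast that the scaling of a library hardly alters. The mean log2 CPM (counts per 1000000) of the 4 resting genes were 7.27, 7.06 and 6.97 in Cre negative and 6.91, 6.46 and 6.99 in Cre positive ventricles. Those of the 4 activated genes were 5.18, 5.74 and 5.95 in Cre negative and 5.81, 6.04 and 5.79 in Cre positive ventricles. Cre negative replicate 1 had the highest resting and the lowest activated mean, and Cre positive replicate 2 the reverse. The other 4 ventricles, of both genotypes, lay close together between them.

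The activated minus the resting mean was -2.09, -1.32 and -1.02 in Cre negative and -1.10, -0.42 and -1.20 in Cre positive ventricles, or -1.48 ± 0.55 against -0.91 ± 0.42 on the log2 scale (SD, n = 3). The genotypes overlapped, since Cre negative replicate 3 lay above 2 of the 3 Cre positive ventricles. The difference of 0.57 was close to the pooled SD of 0.49 and was 0.27 without Cre negative replicate 1. The median log2 fold change was -0.35 over the resting genes and 0.22 over the activated genes, beside 0.0062 over all genes tested. Leaving out Cre negative replicate 1, the resting median was -0.22 and the activated median 0.08. Without Cre positive replicate 2 these medians were -0.17 and 0.16. The activated minus resting difference was 0.33 without Cre positive replicate 2 and 0.80 without Cre negative replicate 3.

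**Figure D5:**
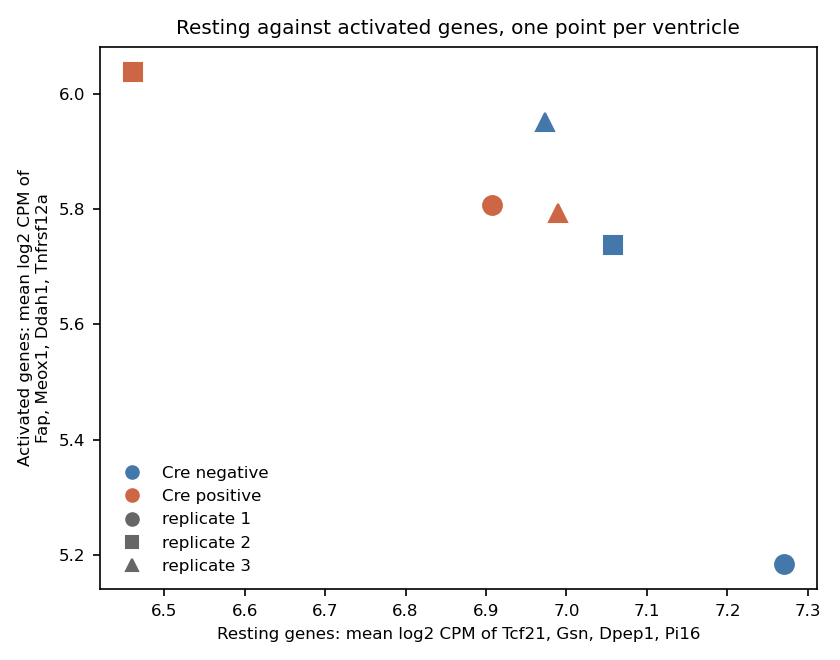
Mean log2 CPM of the 4 activated genes against that of the 4 resting genes, one point per ventricle, blue for Cre negative and orange for Cre positive, symbols by replicate number. Cre negative replicate 1 (7.27 and 5.18) and Cre positive replicate 2 (6.46 and 6.04) lie at opposite ends, and the other 4 ventricles lie together.

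Other genes of the same classes gave a further view. Of 10 other resting fibroblast genes, 3 had a positive and 7 a negative log2 fold change, with a median of -0.22, and 0 passed either the adjusted or the unadjusted threshold by edgeR. The highest was Cd248 (endosialin) at 0.29 (SE 0.14, adjusted p = 0.714) and the lowest Apod (apolipoprotein D) at -1.77 (SE 0.76, adjusted p = 0.714). Normalized counts of Apod were 1113, 201 and 121 in Cre negative and 156, 111 and 152 in Cre positive ventricles, so that Cre negative replicate 1 alone stood above the rest, as for Dpep1. The median of the 10 genes was -0.096 without that ventricle and -0.11 without Cre positive replicate 2, and it was -0.36 without Cre negative replicate 3 and -0.43 without Cre positive replicate 3.

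Of 16 other activated fibroblast genes, 15 had a positive and 1 a negative log2 fold change, with a median of 0.38, which was 0.15 without Cre negative replicate 1. None passed an adjusted p of 0.05 by edgeR. At an unadjusted p under 0.05 (5.83% of all genes), 3 were higher and 1 was lower, and 6 of 16 were higher in every Cre positive ventricle, beside 7.55% of all genes. The highest was Thbs4, a matricellular thrombospondin, at 0.85 (SE 0.23, adjusted p = 0.714). Its normalized counts were 602, 1255 and 1051 in Cre negative and 1763, 1784 and 1682 in Cre positive ventricles, which did not overlap. The other 2 were the metalloprotease gene Adam12 (0.55, SE 0.17) and the protease inhibitor gene Timp1 (0.46, SE 0.19), named after their values were seen. The gene with the negative value was Postn, at -0.66 (SE 0.27, adjusted p = 0.714), with 12157, 24639 and 26862 normalized counts in Cre negative and 12682, 14240 and 13486 in Cre positive ventricles. A copy of this gene carries the Cre in Cre positive mice, and Cre negative replicate 1 was as low as those ventricles.

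Of the 9 other general fibroblast genes, 8 had a positive and 1 a negative log2 fold change, with a median of 0.12 and 0 past either threshold by edgeR. This median was also 0.12 without Cre negative replicate 1, and it was 0.28 without Cre negative replicate 2. They ranged from -0.07 (SE 0.17) for the proteoglycan gene Dcn to 0.39 (SE 0.20) for the collagen gene Col1a2. When each fibroblast gene was expressed relative to the mean of these 9 genes in the same ventricle, an alternative chosen after the data were seen, Meox1 and Ddr2 overlapped between genotypes (differences of 0.14 and 0.02). On this scale 0.811% of all genes were higher in every Cre positive ventricle, against 7.55% before. Gsn was then lower in every Cre positive ventricle, at 0.66, 0.24 and 0.21 in Cre negative against -0.27, -0.41 and 0.09 in Cre positive ventricles on the log2 scale, a difference of -0.57. By the same measure 18.0% of all genes were lower in every Cre positive ventricle.

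The pathway of Tnfrsf12a was represented by 11 genes of TWEAK and noncanonical NF-kappaB signalling. The ligand gene Tnfsf12 (TWEAK) was the lowest of them, at -0.05 (SE 0.14, adjusted p = 0.930), and overlapped between genotypes at 656, 893 and 809 against 667, 852 and 764 normalized counts. The adaptor gene Traf3 was the highest, at 0.33 (SE 0.08, adjusted p = 0.714 by edgeR), with 608, 593 and 674 normalized counts in Cre negative and 782, 786 and 783 in Cre positive ventricles. In all 9 of 11 had a positive log2 fold change, 3 of 11 were higher in every Cre positive ventricle (7.55% of all genes), and 2 had an unadjusted p under 0.05 (5.83% of all genes), the other being Nfkb2 (0.21, SE 0.09), a subunit of the pathway's transcription factor named after its value was seen.

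Relatives of the 10 genes by sequence or family, such as Meox2, Ddah2, Ddr1, Dpp4 and Capg were compared in the same way. Of 10 relatives, 4 had a positive and 6 a negative log2 fold change, with a median of -0.026, and 0 passed either threshold by edgeR. The sign of this median turned, to 0.042 without Cre negative replicate 2, 0.044 without Cre negative replicate 3, 0.0088 without Cre positive replicate 2 and 0.022 without Cre positive replicate 3. Ddr1, the epithelial counterpart of Ddr2, was the highest at 0.21 (SE 0.13) and Scin, an actin-severing relative of Gsn, the lowest at -0.59 (SE 0.32).

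Markers of other cells also differed between ventricles. Summed over their lists, 8 macrophage markers ranged from 3074 to 4975 TPM in Cre negative and from 4034 to 4695 TPM in Cre positive ventricles, 6 endothelial markers from 434 to 548 and from 548 to 618 TPM, and 6 mural markers from 306 to 588 and from 550 to 662 TPM. In the sum of each of these 3 lists, as in that of the other general fibroblast genes, Cre negative replicate 1 was the lowest ventricle. Neutrophil markers (6) ranged from 48.4 to 415 and from 66.6 to 156 TPM, and their sum was highest in Cre negative replicate 1, as Dpep1 and Pi16 were. Among these markers Csf3r alone was lowest in that ventricle, at 12.29 TPM against 17.38 to 25.95 TPM in the others. Epicardial markers (6) ranged from 35.6 to 126 TPM and from 88.9 to 167 TPM. Median log2 fold changes were -0.31 for cardiomyocyte, 0.03 for macrophage, -0.90 for neutrophil, 0.48 for T cell, 0.10 for endothelial, 0.26 for mural and 0.54 for epicardial markers, over the 3 T cell and 5 neutrophil markers that passed the filter and all of the others. These medians became -0.12 for cardiomyocyte, -0.21 for macrophage, 0.05 for endothelial, 0.08 for mural, 0.09 for T cell and 1.42 for epicardial markers without Cre negative replicate 1. The epicardial median was also 0.19 without Cre positive replicate 1, 0.23 without Cre negative replicate 3 and 0.35 without Cre negative replicate 2. For T cell markers the median was 0.08 without Cre positive replicate 3 and 1.01 without Cre negative replicate 2. The neutrophil median rested on 1 library and was 0.67 without Cre negative replicate 1. Not one marker of these lists was at 0 in all 6 ventricles, and 0 passed an adjusted p of 0.05 by edgeR, while at an unadjusted p under 0.05 (5.83% of all genes) the 2 mural markers Cnn1 and Cspg4 were higher and the cardiomyocyte marker Myl2 was lower. The part of these cells in the differences of the fibroblast genes was not tested.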

How the data were processed

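RNA of left ventricles was extracted with TRIzol and libraries were prepared by BGI Americas, per the labels. The submitters' processing notes name Bowtie2 2.2.5, RSEM 1.2.12 and GRCm38.p6. The authors deposited estimated counts, which are not normalized and of which 11.46% are not whole numbers (those of the 10 genes are whole), together with TPM values and FPKM values scaled to length and library size by the authors. FPKM values and the authors' own DESeq2 comparison of the genotypes (fold changes and p-values) were not used. No library was a copy of another, since pairs differed by 8.07 to 68.3 times sampling noise (chi-square per gene).

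After rounding, the estimated counts went into edgeR 4.0.16 under R 4.3.3 (filterByExpr at 10 counts and a total of 15, TMM, quasi-likelihood test, Benjamini-Hochberg adjustment over 13817 genes, threshold 0.05) with no covariate. Each standard error was taken from its F statistic. Normalized counts were scaled by TMM to a common library of 14264187 counts in the genes tested, and log2 CPM used a prior count of 2. For each of the 10 genes a two-sided exact permutation test was added. Upper limits for a count of 0 (3 counts, 95%) and the spread of counts cover counting error only. Alternatives were DESeq2 1.42.0, limma 3.58.1 on log2(TPM + 1) and log2(TPM + 0.1), other scalings and filters, a replicate block, the Y-linked share as a covariate, and leaving out each ventricle. On simulated data the fit called 73 of 100 genes changed 2-fold, 94 of 100 changed 4-fold and 11 unchanged genes. Changes smaller than 2-fold were not part of that summary. Positions are those of RefSeq on GRCm38.p6, matched by gene number. Figures were drawn with matplotlib 3.10.9.

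The 10 genes and all lists were chosen with earlier results of these data known. All 10 genes are named, with the targeted genes and, of every other fibroblast, pathway or relative list, the genes past the adjusted threshold or otherwise the highest and the lowest. Of the cell type lists the summed level is given, and their markers under an unadjusted p of 0.05 were named after their values were seen.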

Additional observations from a re-analysis of the deposited data

How the results depend on the processing

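None of the 10 fibroblast genes passed an adjusted p of 0.05 in any of the 15 other fits, where the lowest adjusted p was 0.505 (without Cre negative replicate 3), and between 0 and 3 of them had an unadjusted p under 0.05, as 360 (without Cre positive replicate 2) to 1338 (without Cre negative replicate 3) of all genes did. The number of genes that differed, 1 in the edgeR test, was 5 with the DESeq2 Wald test, 2 with limma on log2(TPM + 1) or log2(TPM + 0.1), and 0 to 2 when a ventricle was left out. With the replicate block it was 0, with 1217 genes at an unadjusted p under 0.05. Replicate numbers are not stated to pair the mice, and same-numbered ventricles correlated at 0.354, 0.073 and -0.032. Pairs with different numbers ran from -0.368 to 0.354, the highest being Cre negative replicate 3 with Cre positive replicate 2. The TPM scale moved the median of all genes from 0.0062 to 0.11 (log2(TPM + 1)) and 0.12 (log2(TPM + 0.1)), so values on it are read relative to that shift.

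Gsn, Dpep1, Pi16, Meox1 and Ddr2 kept their direction throughout. Fap reversed to 0.051 with library size alone, 0.057 on log2(TPM + 1), 0.068 on log2(TPM + 0.1) and 0.013 with the replicate block. Relative to the other general fibroblast genes Tcf21 (-0.092), Tnfrsf12a (-0.061) and Thy1 (-0.11) reversed. Leaving out a ventricle gave -0.12 to 0.23 for Tcf21, -0.21 to 0.11 for Fap, -0.0063 to 0.67 for Ddah1, -0.0010 to 0.26 for Tnfrsf12a, -0.26 to 0.19 for Thy1 and -0.024 to 0.064 for Yap1. The activated minus resting difference ran from 0.27 to 0.80, Gsn from -0.53 to -0.19, Dpep1 from -0.87 to -0.29, Pi16 from -0.52 to -0.15, the resting median from -0.52 to -0.17 the activated median from 0.08 to 0.33, the median of the other general fibroblast genes from 0.11 to 0.28 and that of the TWEAK pathway genes from 0.057 to 0.21. The cause of these changes was not tested. With 3 ventricles per genotype the precision of each gene is that of its interval, and the effect of depth was not tested.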
